A study of Homo sapiens with 8 samples.

Results

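Very long H3K27ac domains of HL-60 cells were the merged H3K27ac regions of at least 20 kb. The peaks of the 4 H3K27ac libraries were joined wherever they touched or overlapped, with no gap bridged, which gave 53143 merged regions, and 286 of them reached that length. The domains were thus chosen by the H3K27ac peak positions of both groups, and nothing else was used. The 286 domains covered 8246700 bp, which was 6.90% of the 119492303 bp under merged H3K27ac regions. HL-60 is a human acute myeloid leukemia line of promyelocyte-like cells, and every library came from this 1 line. ATRA-treated cells received 1 µM all-trans retinoic acid, and control cells the solvent ethanol, both for 4 days. Each of H3K27ac and H3K4me3 was mapped by ChIP-seq in 2 ATRA and 2 control libraries, 8 in all. Nothing in the labels names separate thaws or passages, so the spread between the libraries of a group may be technical.

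H3K27ac is an acetyl mark on histone H3 that is laid down by p300 and CBP at active promoters and enhancers. Long unbroken stretches of it, of the kind called super-enhancers or stretch enhancers, are known to lie near genes that define a cell type, such as lineage transcription factors and surface receptors. H3K4me3 marks the start sites of active and poised genes and is usually much narrower. ATRA binds the retinoic acid receptors, which recognize repeats of the hexamer AGGTCA, and drives HL-60 cells toward neutrophil-like cells. PU.1, the product of SPI1, and C/EBP factors are the leading activators of granulocyte genes.

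The following promoters belong to domains on which the results turn, and each is shown from 250 bases before to 50 after the start site, as given by RefSeq and placed in hg19 by exact match. Capitals mark a match to any of the 7 motifs that were searched, here GAGGAAGT, the PU.1-type element, so a promoter without capitals held none.
SLC2A5 promoter, chr1:9129645-9129944, minus strand: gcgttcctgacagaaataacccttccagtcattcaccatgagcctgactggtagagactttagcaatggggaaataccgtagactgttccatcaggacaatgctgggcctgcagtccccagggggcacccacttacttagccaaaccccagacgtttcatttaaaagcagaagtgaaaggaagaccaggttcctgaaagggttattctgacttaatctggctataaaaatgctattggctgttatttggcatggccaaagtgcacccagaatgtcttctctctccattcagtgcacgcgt
CD38 promoter, chr4:15779701-15780000, plus strand: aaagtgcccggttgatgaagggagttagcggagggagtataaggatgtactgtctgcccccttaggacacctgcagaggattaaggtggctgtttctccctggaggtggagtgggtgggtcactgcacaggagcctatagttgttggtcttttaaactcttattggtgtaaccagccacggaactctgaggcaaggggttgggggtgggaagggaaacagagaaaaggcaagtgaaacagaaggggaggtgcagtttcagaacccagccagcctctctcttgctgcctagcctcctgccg
FGR promoter, chr1:27953059-27953358, minus strand: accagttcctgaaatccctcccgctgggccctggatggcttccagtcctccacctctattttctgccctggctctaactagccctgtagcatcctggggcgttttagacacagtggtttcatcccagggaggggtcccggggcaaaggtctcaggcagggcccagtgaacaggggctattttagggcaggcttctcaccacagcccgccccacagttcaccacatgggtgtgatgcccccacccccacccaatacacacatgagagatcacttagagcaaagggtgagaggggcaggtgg
ASB2 promoter, chr14:94442867-94443166, minus strand: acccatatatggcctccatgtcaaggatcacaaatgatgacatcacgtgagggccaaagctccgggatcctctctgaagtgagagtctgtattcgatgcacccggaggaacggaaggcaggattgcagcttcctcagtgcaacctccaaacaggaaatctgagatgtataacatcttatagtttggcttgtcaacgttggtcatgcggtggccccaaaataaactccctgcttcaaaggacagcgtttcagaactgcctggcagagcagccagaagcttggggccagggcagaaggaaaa
RARA promoter, chr17:38474247-38474546, plus strand: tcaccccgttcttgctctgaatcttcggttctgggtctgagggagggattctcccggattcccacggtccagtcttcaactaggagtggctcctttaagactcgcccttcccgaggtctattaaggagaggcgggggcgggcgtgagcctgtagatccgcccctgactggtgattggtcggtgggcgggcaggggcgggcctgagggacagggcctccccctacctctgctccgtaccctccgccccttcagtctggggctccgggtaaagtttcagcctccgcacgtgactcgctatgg
PTPN6 promoter, chr12:7055490-7055789, plus strand: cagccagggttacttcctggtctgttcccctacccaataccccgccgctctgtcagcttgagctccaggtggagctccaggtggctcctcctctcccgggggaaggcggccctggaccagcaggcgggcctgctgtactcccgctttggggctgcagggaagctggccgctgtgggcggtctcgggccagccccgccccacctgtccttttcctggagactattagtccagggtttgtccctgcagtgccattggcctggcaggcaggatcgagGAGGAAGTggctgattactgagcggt
TRIB3 promoter, chr20:361689-361988, plus strand: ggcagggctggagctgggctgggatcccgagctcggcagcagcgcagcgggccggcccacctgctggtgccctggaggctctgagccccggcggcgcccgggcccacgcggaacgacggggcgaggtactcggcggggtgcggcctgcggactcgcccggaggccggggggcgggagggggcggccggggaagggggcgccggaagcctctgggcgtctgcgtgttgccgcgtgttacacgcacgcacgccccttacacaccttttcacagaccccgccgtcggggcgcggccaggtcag
The first 3 had neither mark in control cells. All 300 bases shown for SLC2A5, CD38 and FGR lay under H3K27ac and H3K4me3 peaks in both ATRA libraries and under no peak of either mark in both control libraries. A second FGR promoter, chr1:27961647-27961946, had H3K27ac in the same pattern and no H3K4me3. The ASB2 promoter shown lay wholly under H3K27ac in both ATRA libraries and under none in the controls, with no H3K4me3 in any of the 4 libraries. A second ASB2 promoter, chr14:94423344-94423643, lay wholly under H3K27ac in all 4 libraries, and H3K4me3 covered 300, 0, 26 and 0 of its bases. At the RARA promoter shown, all 300 bases were under both marks in every library. RARA had 2 more promoters in the domain. At chr17:38465182-38465481 H3K27ac covered 300, 300, 0 and 0 bases and at chr17:38498168-38498467 300, 0, 0 and 0, in the order ATRA 1, ATRA 2, control 1, control 2, and neither had H3K4me3. At PTPN6, 300, 300, 22 and 300 bases were under H3K27ac in ATRA 1, ATRA 2, control 1 and control 2, and all 300 were under H3K4me3 throughout. TRIB3 was the reverse of SLC2A5 for H3K27ac only, with 0 bases in both ATRA libraries, 300 in both controls, and H3K4me3 over the whole promoter in all 4 libraries.

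Sites with the letters of a retinoic acid receptor element were rare in the domains. The direct repeat of AGGTCA with any 5 bases between the hexamers was found at 2 places in 2 domains, and the direct repeat with any 2 bases between at 7 places, on either strand. Shown are both of the former and the 1 of the latter that fell in 1 of the 10 longest domains, with the hexamers in capitals.
Repeat in the SERPINA1 domain, chr14:94863136-94863196, plus strand: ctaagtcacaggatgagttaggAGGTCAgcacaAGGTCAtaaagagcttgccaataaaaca
Repeat in the domain next to RCBTB2, chr13:49159867-49159927, minus strand: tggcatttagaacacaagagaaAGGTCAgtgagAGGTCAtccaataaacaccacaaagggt
Repeat in the CDH23 domain, chr10:73500264-73500321, plus strand: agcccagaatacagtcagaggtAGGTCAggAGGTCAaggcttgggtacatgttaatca
All 3 lay in domains with more H3K27ac in both ATRA libraries than in both controls, but so did 70.6% of all domains. Of the 7 repeats with 2 bases between, 6 lay in such domains and 1 in a domain where the groups overlapped. The repeat with 5 bases between the hexamers occurred in 0.699% of the 286 domains and in 1.03% of the 1257 merged regions of 10 to 20 kb, and the repeat with 2 bases between in 2.45% and 1.27%. Domains are longer, and a longer region has more room for a match. Per 100 kb, the former repeat occurred 0.0243 times in domains and 0.0781 times in regions of 10 to 20 kb. The latter occurred 0.0849 and 0.0961 times. None of these shares says whether a receptor was bound.

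The H3K27ac of the domains was mostly that of ATRA-treated cells. Summed over the 286 domains, 7179486 bp lay under peaks in ATRA 1 and 6721764 bp in ATRA 2, against 3201127 bp in control 1 and 3925329 bp in control 2. The ratio of the means was 1.95, or 0.96 on the log2 scale, with 1.17 between the libraries numbered 1 and 0.78 between those numbered 2. In merged regions under 20 kb the same log2 ratio was 0.86, so the shorter regions differed by nearly as much. Since these libraries chose the domains, the H3K27ac values are given as a description with no test.

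**Figure D1:**
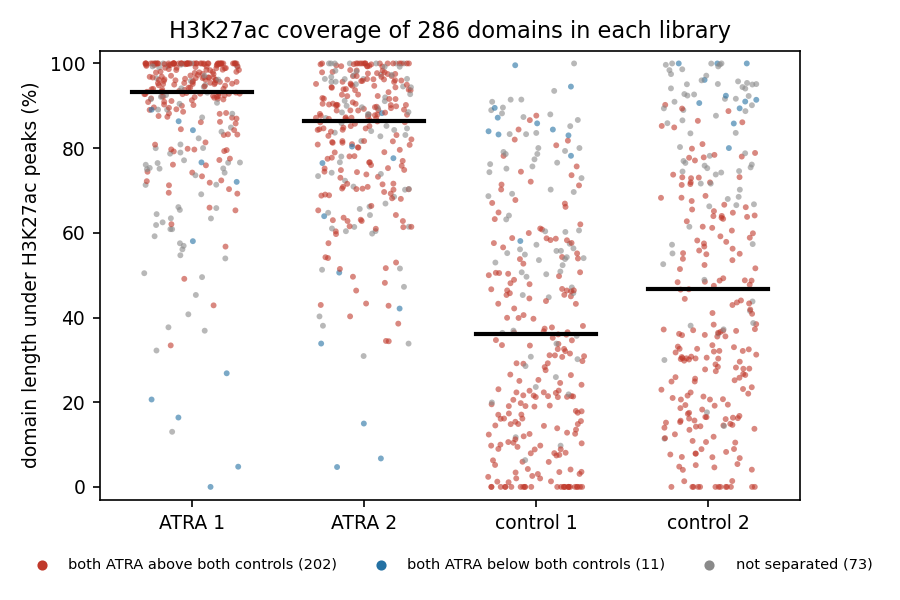
Percent of each domain's length under H3K27ac peaks (vertical axis) in the 4 libraries (horizontal axis), with 1 point per domain, 286 points per library, a bar at the median, and colors for the direction of the difference between groups. The medians were 93.2% in ATRA 1, 86.5% in ATRA 2, 36.2% in control 1 and 46.6% in control 2.

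The domains were more fully covered in ATRA-treated cells than in control cells. The median domain was covered over 93.2% of its length in ATRA 1 and 86.5% in ATRA 2, against 36.2% in control 1 and 46.6% in control 2. The median number of peaks in a domain was 2 in each ATRA library and 3 in each control. A single deposited peak of 20 kb or more was present in 154 domains in ATRA 1 and 101 in ATRA 2, but in 13 in control 1 and 34 in control 2. Domain length ran from 20002 to 102301 bp with a median of 25706.5 bp, and 88 domains reached 30 kb. The 3 shortest members measured 20002, 20016 and 20031 bp, and the 3 longest regions left out 19896, 19916 and 19954 bp. All 3 of the former and 2 of the latter had more H3K27ac in both ATRA libraries than in both controls.

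In 202 of the 286 domains (70.6%), both ATRA libraries had more base pairs under H3K27ac peaks than both controls. Over all 53143 merged regions this held for 19.2%, and for 60.5% of the 1257 regions of 10 to 20 kb. In 11 domains (3.85%) both ATRA libraries lay below both controls, against 2.97% of all merged regions and 6.84% of those of 10 to 20 kb. The groups overlapped in the other 73 (25.5%). Since the domains were chosen on these values, nothing is read from the shares. In the text below, ATRA-higher and ATRA-lower name domains whose groups did not overlap, and unseparated names the 73.

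The libraries themselves differed in the same direction, and this bears on every domain. Peaks covered 64.8 and 86.1 Mb in the ATRA libraries and 28.8 and 54.0 Mb in the controls. The number of peaks was 28200 and 39332 against 15457 and 29616, so by number the groups overlapped. The authors kept peaks found in both replicates and reported fewer H3K27ac peaks in ATRA-treated than in control cells, the other direction. Why their count differs from the deposited files was not tested. When each domain was expressed as its share of the library's own total, 101 domains were ATRA-higher and 65 ATRA-lower, so the ATRA-higher part of the separated domains went from 94.8% to 60.8%. By that measure 35.3% of the domains were ATRA-higher and 22.7% ATRA-lower, close to the 34.0% and 27.7% of regions of 10 to 20 kb, and over all merged regions the shares were 13.0% and 9.85%. The log2 ratio of the summed domains went from 0.96 to 0.0375, and the groups overlapped. The domains held 11.07% and 7.80% of the ATRA totals against 11.12% and 7.28% of the control totals. ATRA 1 thus lay below control 1, and ATRA 2 above control 2. Of the 202 ATRA-higher domains, 101 kept their direction, 91 were no longer separated and 10 turned to ATRA-lower, while all 11 ATRA-lower domains stayed so. Of the 73 unseparated domains, 44 became ATRA-lower and 29 stayed unseparated. The number of reads behind the peaks is unknown, so a wider spread of the mark and a library in which more signal passed the peak caller cannot be told apart.

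The base pairs inside the domains showed where the ATRA signal lay. Of all domain bases, 27.7% were under peaks in all 4 libraries, 27.9% in both ATRA libraries and neither control, and 1.14% in both controls and neither ATRA library. Of the bases that both controls marked, 89.5% were also marked in both ATRA libraries, with 97.9% in ATRA-higher and 50.6% in ATRA-lower domains. The shared bases were the ones nearer to genes, with 21.8% within 2 kb of the start of a protein-coding gene, against 14.0% of the ATRA-only bases. H3K4me3 differed more between these bases. In ATRA 1, ATRA 2, control 1 and control 2, H3K4me3 covered 31.6%, 26.1%, 32.7% and 19.1% of the bases with H3K27ac in all libraries, but 9.03%, 8.53%, 3.80% and 2.33% of the bases with ATRA-only H3K27ac.

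**Figure D2:**
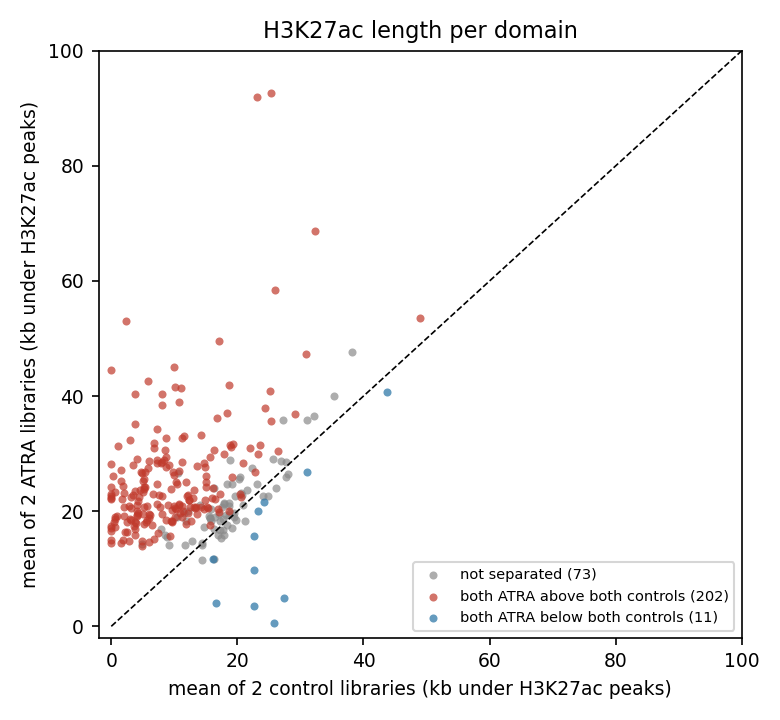
Mean kilobases under H3K27ac peaks in the 2 ATRA libraries (vertical axis) against the mean in the 2 control libraries (horizontal axis), with 1 point per domain and a dashed line of equal values. Of the 286 points, 202 are ATRA-higher, 11 ATRA-lower and 73 unseparated, and the 2 highest points are the SLA and SIRPA domains.

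The 2 longest domains were the 2 with the largest differences in base pairs. The longest, chr8:134068612-134170912 in hg19, held the start of SLA, whose product is an adaptor that dampens antigen receptor signaling, and part of TG, the thyroglobulin gene in which SLA is nested on the other strand. It held 97577 and 86280 bp of H3K27ac in the ATRA libraries against 15731 and 30493 bp in the controls, a ratio of the means of 3.98. The next, chr20:1782041-1880557, held the start of SIRPA, the gene of the myeloid receptor that reads the CD47 signal, and had 5.83% of its length in gene bodies, with 98355 and 87074 bp against 20887 and 29936 bp. In ATRA 1 that was a single peak over nearly the whole domain. Both had a larger share of the library total in both ATRA libraries as well, by 2.25-fold at SLA and 1.98-fold at SIRPA. At SLA the H3K4me3 was also longer, with 25259 and 22449 bp in ATRA-treated cells against 5263 and 3889 bp, while at SIRPA it was 16068, 13010, 14235 and 9725 bp in the order ATRA 1, ATRA 2, control 1, control 2.

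Some other domains among the 10 longest did not keep their call as shares of the library totals. The longer RAB31 domain and the one near GALM, both described below, were also among the 10 longest and kept theirs. At chr1:235071640-235131181, with noncoding genes alone, 54959 and 52192 bp stood against 46542 and 51473 bp, and this ATRA-higher domain was ATRA-lower by share of the library total. At chr10:73444366-73518473, inside CDH23, a cadherin gene, and over C10orf105 and the end of VSIR, an immune checkpoint gene, the values were 72917 and 64504 bp against 33610 and 31033 bp. At chr1:167563142-167624494 over RCSD1, 56554 and 60341 bp stood against 23317 and 28634 bp. The domain of RARA, the retinoic acid receptor alpha itself, at chr17:38462606-38512164, held 48594 and 35115 bp against 19678 and 17761 bp, and that of XYLT1, chr16:17430987-17481191, held 48524 and 46029 bp against 30097 and 31780 bp. The last 4 were ATRA-higher in base pairs but unseparated as shares of the library total.

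A further 7 domains had little or broken H3K27ac in the controls. RAB31, a small GTPase gene of vesicle transport, had 48622 and 57299 bp against 0 and 4523 bp at chr18:9729980-9787680, and a second domain over its main promoter, chr18:9693414-9723700, had 28697 and 29382 bp against 1898 and 6360 bp. The domain inside SMG6 at chr17:1961526-2008304, which reaches the end of the HIC1 gene, had 45837 and 43171 bp and none in either control. At ASB2, a ubiquitin ligase subunit known as a retinoic acid target in leukemia cells, chr14:94406316-94452581 held 46266 and 39005 bp against 4759 and 6890 bp. SLC2A5, the gene of the fructose transporter GLUT5, had 40182 and 40678 bp against 0 and 7658 bp at chr1:9121133-9163056. A domain 6903 bp from the nearest start site, that of SLC9A8, at chr20:48372923-48422347, had 44003 and 46074 bp against 4816 and 15085 bp, and another 4356 bp from GALM, at chr2:38835847-38888867, had 48806 and 50457 bp against 15423 and 18847 bp. All of the domains in this paragraph also had larger shares of the library total in both ATRA libraries.

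In 12 domains neither control library had any peak, and all 12 were ATRA-higher. That was 4.20% of the domains, against 7.32% of regions of 10 to 20 kb and 48.0% of all merged regions. Besides SMG6 they lay at SEMA6B, COL4A2, UCP3 and TTLL4, inside SYT2, SH3RF3 and CCDC12, and between genes, and these genes were picked out after their values were seen. The largest of the others was chr6:2518959-2552067, 192315 bp from the nearest protein-coding start, with 23282 and 33109 bp in the ATRA libraries. No domain lacked a peak in both ATRA libraries. In a further 14 domains 1 control had no peak, and 259 domains held peaks of all 4 libraries.

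**Figure D3:**
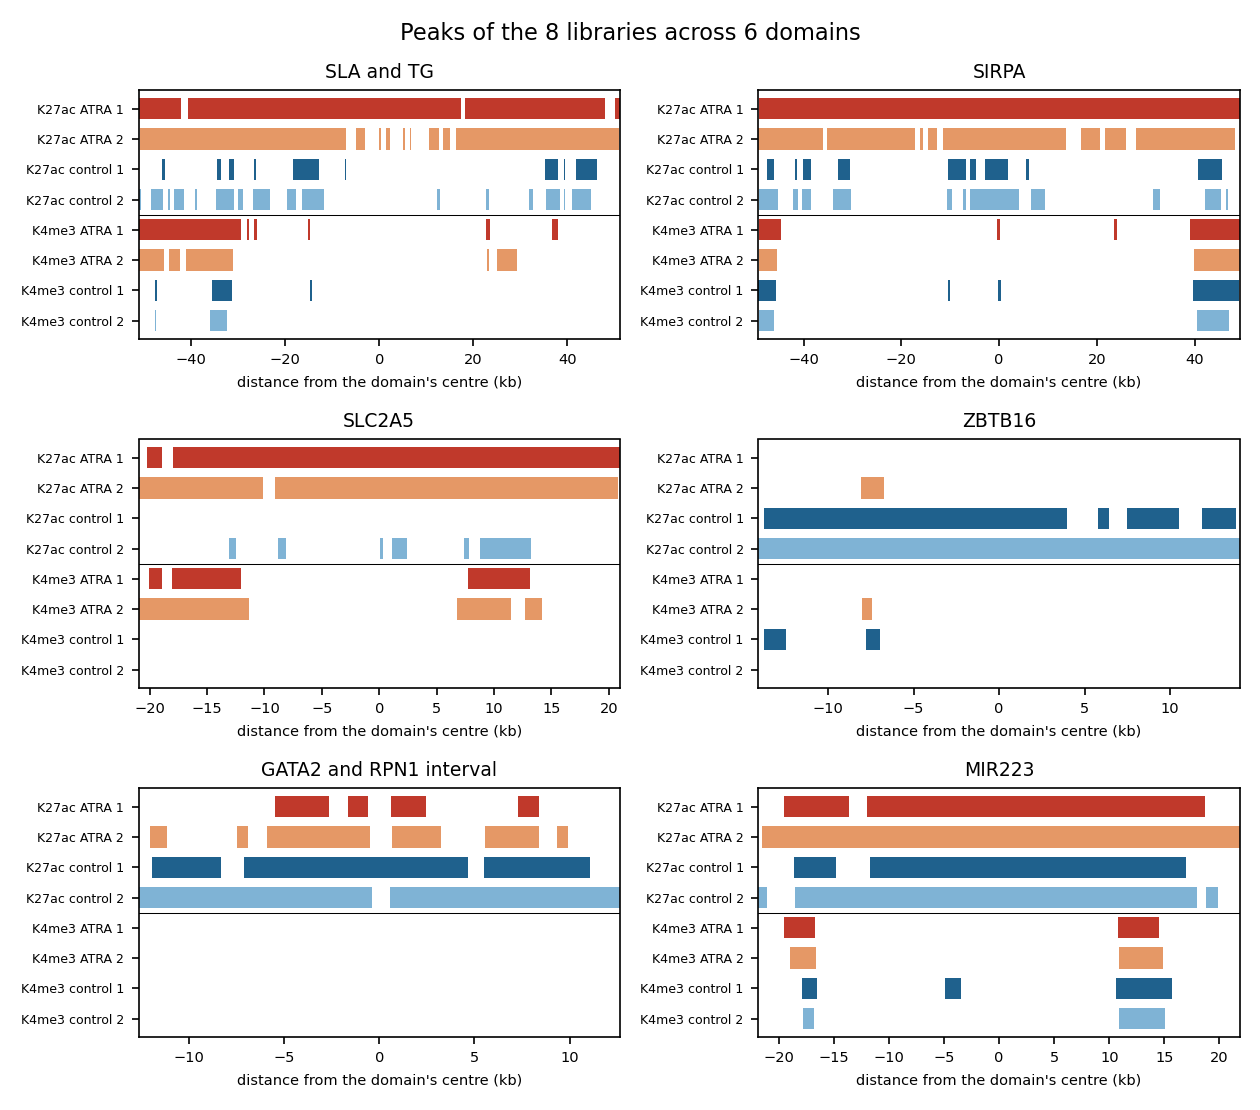
Peaks of H3K27ac (upper 4 rows) and H3K4me3 (lower 4 rows) in the 2 ATRA and 2 control libraries across 6 domains, by distance in kilobases from the domain's centre. In the H3K27ac rows, ATRA is fuller than control at SLA, SIRPA and SLC2A5, though ATRA 2 is broken at SLA and SIRPA. At ZBTB16 and between GATA2 and RPN1 the H3K27ac rows of the controls are fuller, and at MIR223 those of all 4 libraries are mostly filled.

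The ATRA-lower domains with the largest differences lay in or near ZBTB16, BCL2, TRIB3, RPN1 and RHEX, and 7 of the 11 held no protein-coding start. At chr11:113947630-113975788, inside ZBTB16, a transcription factor gene of early progenitors whose fusion with RARA causes a retinoid-resistant leukemia, both ATRA libraries were almost empty with 0 and 1321 bp against 23436 and 28159 bp. The domain at chr18:60756338-60787464 lay 18180 bp from the nearest start site of BCL2, the survival factor gene, with 5099 and 4657 bp against 26141 and 28756 bp. TRIB3, a pseudokinase gene induced by amino acid and endoplasmic reticulum stress, shared chr20:338771-365153 with NRSN2, and had 5445 and 1772 bp against 22650 and 22642 bp. Between GATA2 and RPN1, the stretch known to hold a distal GATA2 enhancer that is moved by chromosome 3 rearrangements in leukemia, chr3:128302829-128328115 had 6784 and 12797 bp against 20992 and 24305 bp. At RHEX, a gene for an erythropoietin signaling adaptor, chr1:206253383-206274367 had 1001 and 7104 bp against 12185 and 20985 bp.

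The rest differed by less. Inside ZNRF1, a ubiquitin ligase gene, chr16:75093542-75119375 had 14991 and 16516 bp against 21802 and 23510 bp, and at MICAL2, an actin oxidizing enzyme gene, chr11:12168057-12188413 had 14664 and 8574 bp against 15918 and 16289 bp. A domain 109511 bp from CXCR4, the bone marrow homing receptor gene, at chr2:136986258-137019440, had 27954 and 25759 bp against 28935 and 33183 bp. The remaining 3 lay at MBP, at GATD3 and over T cell receptor segments, among them delta joining and constant and alpha joining ones. The last, chr14:22911126-22959942, was filled in all libraries, with 42155, 39235, 43696 and 43642 bp, and was among the 3 domains with the most alike values.

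The longest unseparated domains differed in how the libraries covered them. At MIR223, the gene of a granulocyte microRNA, chrX:65202619-65246314 held 36652 and 43356 bp against 32478 and 38302 bp. By share of the library total this domain was ATRA-lower. The mature products of MIR223 are shown with the seed, bases 2 to 8, in capitals, because miR-223 is the best known microRNA of granulocytes and its gene lay in a domain that was filled in both conditions.
hsa-miR-223-3p: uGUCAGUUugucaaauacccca
hsa-miR-223-5p: cGUGUAUUugacaagcugaguu
AHRR, the repressor of the dioxin receptor, shared chr5:392481-449558 with EXOC3, with 54199 and 41271 bp against 44880 and 31468 bp. There the libraries numbered 1 were both longer than those numbered 2. The same was seen at chr1:234996840-235041711, a domain with no protein-coding gene, with 44872 and 26842 bp against 35908 and 18649 bp. That domain was 1 of 4 that followed each other on chromosome 1 with gaps under 2 kb, and together they formed a tract of 170780 bp between IRF2BP2 and TOMM20. The tract held 158944 and 125033 bp of H3K27ac in ATRA-treated cells against 125816 and 102129 bp in the controls. Tracts of 2 domains with so small a gap occurred at 6 other places, and in all 263 neighboring pairs the median distance was 2976350 bp.

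H3K4me3 peaks took no part in the choice of domains, and they covered more of the domains in both ATRA libraries than in both controls. The choice leaned on H3K27ac peaks of ATRA-treated cells, so this comparison is not free of it. Summed over the 286 domains, H3K4me3 peaks covered 1336585 and 1177771 bp in the ATRA libraries and 1154994 and 704270 bp in the controls, so the groups did not overlap. The log2 ratio of the means was 0.44, with 0.21 and 0.74 between same-numbered libraries, and the exact two-sided permutation test over the libraries gave p = 0.333. With 2 libraries against 2, 0.33 is the smallest p the design allows. The library totals ran the same way, with H3K4me3 peaks over 63.2 and 62.3 Mb in the ATRA libraries and 59.8 and 47.7 Mb in the controls. As shares of those totals the groups overlapped, the log2 ratio was 0.23 and the exact permutation p was 0.667. Control 2 weighed on the ratio in base pairs, which was 0.12 without its H3K4me3 library and 0.84 without that of control 1. In the 202 ATRA-higher domains the log2 ratio was 0.64, from 931028 and 796192 bp against 691238 and 418840 bp. In the 11 ATRA-lower domains it was -1.02, from 11646 and 8811 bp against 28813 and 12773 bp. In the unseparated domains it was 0.12 and the groups overlapped. In merged regions under 20 kb it was 0.11.

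**Figure D4:**
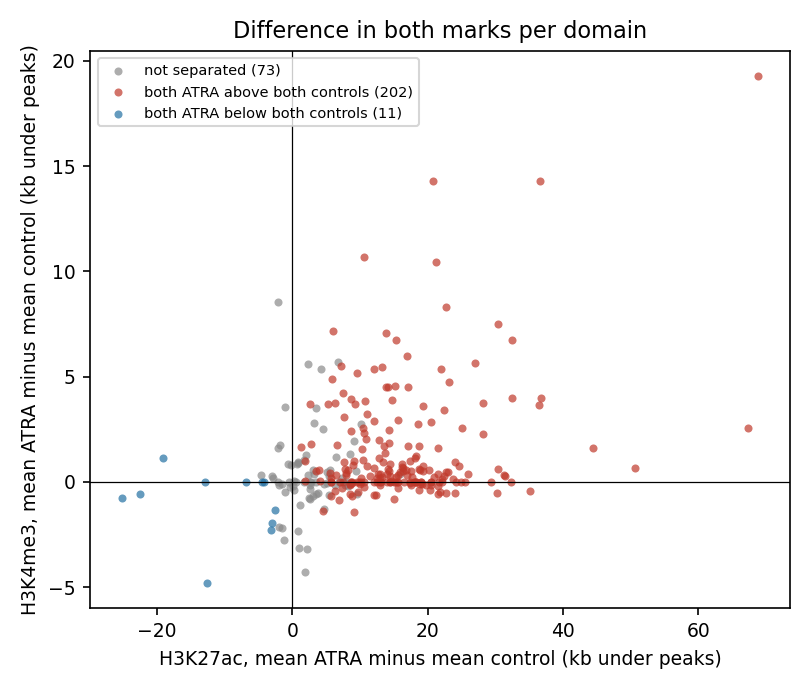
Difference of the mean H3K4me3 length (vertical axis, ATRA minus control, kilobases under peaks) against that of H3K27ac (horizontal axis) for the 286 domains, colored by the direction of H3K27ac. Most domains lie near 0 for H3K4me3, SLA is the highest and rightmost point, and no ATRA-lower domain exceeds 5 kb in either direction for H3K4me3.

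By single domain, both ATRA libraries had more H3K4me3 than both controls in 71 of the 286, and less in 10. Over all merged regions these shares were 4.76% and 1.11%, and over those of 10 to 20 kb 17.7% and 4.93%. Of the 71, 57 were ATRA-higher for H3K27ac, 13 unseparated and 1, that of TRIB3, ATRA-lower, where 70.6% of all domains were ATRA-higher. Of the 10, 3 were ATRA-lower, 3 ATRA-higher and 4 unseparated. H3K4me3 appeared in both ATRA libraries and neither control in 12 domains, all ATRA-higher, and in both controls and neither ATRA library in 2. The former was 4.2% of the domains, against 2.31% of regions of 10 to 20 kb and 1.02% of all merged regions, and the latter 0.699%, against 1.11% and 0.211%. Among the 12 were SLC2A5 with 12645 and 15930 bp, FGR with 12612 and 8282 bp, and, picked out after their values were seen, CCL2, the monocyte chemokine gene, with 6262 and 4502 bp and SEMA6B with 4665 and 4379 bp. A domain at chr20:48880143-48903129 that carries the long noncoding RNA gene PELATON, 72776 bp from CEBPB, had 1483 and 738 bp. The 2 with H3K4me3 in the controls alone were the domain over the T cell receptor delta and alpha segments, with 3367 and 574 bp, and chrX:13092981-13113788, with 5264 and 997 bp.

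H3K4me3 filled little of most domains. It covered 16.2%, 14.3%, 14.0% and 8.54% of the domain bases in ATRA 1, ATRA 2, control 1 and control 2, against 30.5%, 28.9%, 30.1% and 25.0% of the bases of shorter regions. It was found in all 4 libraries in 137 domains and in none in 47. At the other end, chr17:56402476-56425675, with MIR142HG, the host of a blood cell microRNA, and TSPOAP1, was covered by H3K4me3 over 23200, 23200, 23095 and 23200 of its bases. The other 2 domains with most H3K4me3 were that of PTPN6, the phosphatase SHP-1, with 25794, 21462, 28369 and 18215 bp, and the histone cluster at chr6:26018961-26061207, with 27038, 24672, 23901 and 17077 bp. The longest domain without any was the unseparated one on chromosome 1 named above, and the next, chr6:45642955-45685620, had 38398 and 42354 bp of H3K27ac in the ATRA libraries against 5463 and 10744 bp.

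A start site of a protein-coding gene, counting every annotated transcript, lay in 152 domains (53.1%), compared with 48.5% of merged regions of 10 to 20 kb and 19.0% of those under 20 kb. Counting protein-coding transcripts alone it was 45.8%. The 152 domains held the starts of 218 genes, 39 held those of more than 1, and 36 covered at least 1 gene whole. A domain without a start was as common a case, with 134, and 85 overlapped no protein-coding gene body at all. Per 100 kb, domains held 11.0 protein-coding starts against 49.3 in shorter regions. On the 117 RefSeq promoters in ATRA-higher domains, H3K27ac was present on 115, 105, 64 and 68 in ATRA 1, ATRA 2, control 1 and control 2, and H3K4me3 on 79, 74, 70 and 62.

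Most listed genes of granulocyte function had no domain on the body. Of 14 primary granule genes, MPO and BPI each had an unseparated one, with 17266 and 20001 bp against 13218 and 22296 bp at MPO. At BPI the values were 25530 and 32333 bp against 11974 and 25675 bp. None of 15 secondary and tertiary granule genes, 11 adhesion genes and 14 actin and motility genes had a domain on its body. Of 12 chemoattractant receptor genes, CCR1, with 27180 and 41213 bp against 975 and 13386 bp, was ATRA-higher, and C3AR1 and P2RY2 were unseparated. Of 14 Fc receptor and SRC family signaling genes, FGR, a SRC family kinase of myeloid cells, was ATRA-higher with 22522 and 23961 bp against 0 and 3957 bp. Over all 20149 protein-coding genes, 280 (1.39%) had a domain on the body, a smaller share than in each of these short lists that had any. Those shares were 14.3% of primary granule, 25.0% of chemoattractant receptor and 7.14% of Fc receptor and SRC family genes.

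Among regulators, SPI1 lay in an ATRA-higher domain with 27788 and 29056 bp against 20519 and 21342 bp, and its H3K4me3 was 23503, 19831, 21384 and 13527 bp. It was 1 of 3 of 18 myeloid differentiation factor genes with a domain, beside HIC1 at the edge of the SMG6 domain and IRF1. The IRF1 domain, with 19924 and 19977 bp against 6430 and 16429 bp, lay downstream of the coding transcripts and held only the start of a noncoding one. Of 15 stem and progenitor factor genes, ZBTB16 was ATRA-lower, while MYB, with 9042 and 22732 bp against 11106 and 24512 bp, and LMO2, with 19793 and 29518 bp against 10064 and 26559 bp, were unseparated. Of 14 retinoid pathway and classic ATRA target genes, RARA and CD38 were ATRA-higher. At CD38, the enzyme gene that ATRA is well known to switch on in HL-60 cells, H3K27ac covered 26664 and 32166 bp against 6413 and 10799 bp, and H3K4me3 7395 and 24643 bp against 2407 and 1022 bp. Of 14 NF-kB and TNF signaling genes, TNF and LTB shared an ATRA-higher domain with 24601 and 19248 bp against 12007 and 12756 bp, and TNFRSF1B was unseparated. As shares of the library total the SPI1, IRF1, TNF and RARA domains were no longer separated, and the mean share at SPI1 was lower in ATRA-treated cells, at 0.691 times the control. Those of CD38, CCR1 and FGR stayed ATRA-higher. By the same measure the MYB, LMO2, MPO, BPI, C3AR1 and P2RY2 domains, unseparated in base pairs, were ATRA-lower, and that of TNFRSF1B stayed unseparated.

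Of 39 markers of other blood and tissue cells, 1 (2.56%) had a domain on its body, and in lists this short a count of 0 says little beside the 1.39% of all genes. None of 9 monocyte and macrophage, 7 erythroid, 5 megakaryocyte, 7 T and NK cell, and 6 epithelial and stromal markers had one. Of 5 B cell markers CD79A did, in a domain that was ATRA-higher in base pairs and unseparated by share of the library total and that also held the starts of ARHGEF1 and RPS19, with 25329 and 24082 bp against 9400 and 11568 bp.

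The PU.1-type element was found in a small part of the promoters. GAGGAAGT, read on both strands, was in 10 of 171 RefSeq promoters within or beside a domain (5.85%) and in 2.59% of all 35116, and all 10 belonged to ATRA-higher domains, which held 117 of the 171. They included PTPN6 and, among genes picked out after their values were seen, ALOX5AP, the activator of leukotriene synthesis, and LCP2, the adaptor SLP-76. The GATA-type hexamer AGATAA was in 4.09% of the domain promoters and 10.3% of all. The C/EBP-type TTGCGCAA was in 0 of the 171 and 0.151% of all, the RUNX-type TGTGGTTT in 2.92% and 1.53%, and the AP-1-type TGANTCA in 8.19% and 7.71%. Neither direct repeat of AGGTCA was in a domain promoter. Over whole domains, GAGGAAGT occurred 7.99 times per 100 kb against 8.82 in shorter regions. AGATAA occurred 49.0 times per 100 kb in ATRA-higher, 68.9 in ATRA-lower and 63.1 in shorter regions, where the percentage of G and C was 49.4, 46.8 and 47.1. A match is a run of letters and not a bound site. Matches to different motifs were counted separately whether or not they overlapped, and the part of base composition in these densities was not tested.

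Which regions count as domains rested on a few choices. With ATRA replicate 1 left out, 152 regions reached 20 kb and 109 of them were ATRA-higher, and with only peaks of a -log10 q of at least 5, there were 26 domains, with 6 ATRA-higher and 0 ATRA-lower. The ATRA-lower count was 29 without control replicate 1, 20 without ATRA replicate 2, 16 without ATRA replicate 1 and 9 without control replicate 2. With a library left out, the regions were merged anew and 1 library stood against 2. That is a looser rule than 2 against 2, so these counts are not like the 11.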

How the data were processed

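ChIP-seq peak files of 8 libraries of HL-60 cells were analyzed, grouped by GEO's labels. The authors trimmed adapters (the submitters' processing notes name cutadapt), mapped the reads with Bowtie on hg19, and ran MACS2 in its broad mode on each library, without a fragment model. Versions are not given in the sources used here. The deposited peak positions were the measure used. The deposited −log10 q served only as a filter of at least 5 in a stricter setting. The deposited fold and −log10 p columns were left out because they hold values such measures cannot take. The authors' peak caller also wrote a display score, which was not used. Read depth is unknown, so no counting interval was given.

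Peaks of the 4 H3K27ac libraries were merged with bedtools 2.31.1. Base pairs under peaks were counted per library and region with Python 3.11.15, numpy 2.4.6 and pandas 2.3.3. Genes came from GENCODE 44 mapped to GRCh37, and promoters and microRNAs from RefSeq. No region ran past a chromosome end. H3K4me3 sums were compared by an exact two-sided permutation test over the libraries. Domains were named by rule: the longest, the most different in each direction, the most alike, those with most or no H3K4me3, those at the threshold, and those on listed genes. The members and the gene lists were chosen with earlier results of these data known. Scripts were tested on simulated peaks. Alternatives were the minimum length, joining gap, q filter, division by the library total, the replicate number, and each library left out. The result of 1 gene list is not reported here.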

Additional observations from a re-analysis of the deposited data

How the results depend on the processing

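The log2 ratio of H3K27ac length in the domains stayed above 0 under every alternative run, but after division by the library total the groups overlapped. That of H3K4me3 also stayed above 0, from 0.12 to 0.84 with single libraries left out. With a minimum length of 15 kb there were 597 domains, 416 ATRA-higher and 26 ATRA-lower, and with 30 kb 88, 68 and 3. Joining peaks up to 1 kb apart gave 304 ATRA-higher domains. With peaks of a -log10 q of at least 5 there were 26 domains, 6 ATRA-higher and 0 ATRA-lower, with a log2 ratio of H3K27ac of 2.07 and a protein-coding start in 46.2%. Division by the library total gave 101 ATRA-higher and 65 ATRA-lower domains and a log2 ratio of 0.0375. A start was held by 75.2% when genes of any type counted and by 45.8% when protein-coding transcripts alone counted, a setting chosen after seeing the data. Taking an equal number of peaks per library, the longest first, was also chosen after seeing the data and gave 196 ATRA-higher and 12 ATRA-lower of 283 domains. Leaving out 1 library at a time gave 152 to 282 domains, 109 to 224 ATRA-higher and 9 to 29 ATRA-lower, by the looser rule of 1 library against 2. The causes of these shifts were not tested.

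The replicate block, which compares same-numbered libraries, gave 242 ATRA-higher and 19 ATRA-lower domains, a log2 ratio of 0.97 for H3K27ac and of 0.48 for H3K4me3. Same-numbered ATRA and control libraries deviated together across the domains, with a Pearson correlation of 0.69 for H3K27ac and 0.35 for H3K4me3 over the 286 domains, which share the same 4 libraries. With 2 pairs and no label that gives the number a meaning, the libraries were not treated as paired. Depth could not be weighed, because the files hold no read counts.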
